A study of Mus musculus with 6 samples.

Results

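The S100 genes encode small calcium-binding proteins, and 8 of the 12151 genes in the deposited table carry a symbol of this family (S100a followed by a number, or S100b): S100a1, S100a4, S100a6, S100a10, S100a11, S100a13, S100a16 and S100b. All 8 passed the filter on low values, a mean over the 6 libraries of 1 CPM or more (CPM, reads scaled to library size), and were tested. Of 14 family genes of this naming in RefSeq's GRCm38.p6 annotation, the other 6 (S100a2, S100a3, S100a5, S100a8, S100a9 and S100a14) were not among the listed genes. They include S100a8 and S100a9, the pair known from neutrophils and other myeloid cells.

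The study compared RNA from cultured mouse glioma cells of the kinds named mNS and GL261. The mNS cells, labelled as neurospheres of glioma stem-like cells, were kept in serum-free DMEM/F12 with B-27, basic FGF, EGF and heparin, and were taken at passages 72, 77 and 85. GL261, a mouse glioma line labelled as differentiated glioma cells, was kept in DMEM with fetal bovine serum and taken at passages 17, 33 and 34 by title, although the passage field of the third library says 33. Penicillin, streptomycin, hepes, glutamine and beta-mercaptoethanol were in both media. Each group had 3 libraries, with between 12534422 and 14225175 reads in listed genes, and 1 read was worth between 0.0708 and 0.0773 CPM. Pairs of libraries within a group correlated across genes with r between 0.987 and 0.997, pairs from different groups with r between 0.845 and 0.856, and no pair matched within counting noise. Cell line, medium and passage range differ together between the groups and cannot be told apart. The labels do not name separate cultures within a group, whose libraries differ in passage by title. The p-values therefore refer to the spread among these 6 libraries, which takes in differences between passages and may in part be technical.

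S100 proteins are short chains with a pair of calcium-binding loops called EF-hands, and most work as dimers that open a binding face when calcium rises. Inside the cell they bind partners such as annexins, myosin and p53; several are also released and act on receptors such as RAGE (encoded by Ager). In the brain S100B is known as an astrocyte protein that is also made by part of the oligodendrocyte lineage, and S100A4, also called fibroblast-specific protein, is known from motile and mesenchymal cells and from metastasis. S100A10 is unusual in that it no longer binds calcium and sits in a fixed complex with annexin A2.

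In mNS 5 of the 8 S100 genes fell and 2 rose, as tested with limma on log2(CPM + 1) at an adjusted p under 0.05 over all 12006 genes that passed the filter. The genes that fell were S100a4, S100a11, S100a6, S100b and S100a10, those that rose were S100a16 and S100a1, and S100a13 was not called. The comparison called 64.3% of all genes tested, 32.1% as lower and 32.2% as higher in mNS, so a call on its own is common in these data. A fall of at least 2 on the log2 scale was called for 4 of the 8, S100a4, S100a11, S100a6 and S100b, and for 3.22% of all genes tested. That cut was not part of the planned tests, and the share of rises of this size was not counted. S100b (-2.10) only just reached it, and the rise of S100a16 (1.94) fell just short of that size. Values of mNS and GL261 did not overlap for 7 of the 8 genes, against 69.9% of all genes tested. The median log2 difference, mNS minus GL261, was -1.52 over the 8 genes and -0.0027 over all genes tested. In bulk RNA, fewer cells that express a gene and less RNA per cell cannot be told apart.

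**Figure D1:**
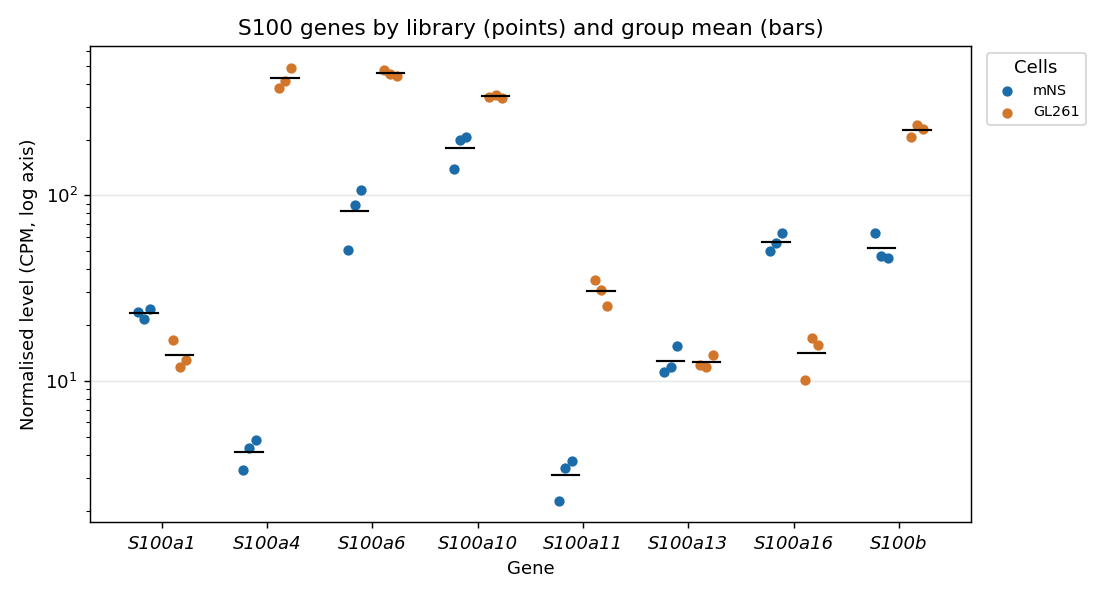
CPM of each S100 gene (log axis) in the 3 mNS and the 3 GL261 libraries, each point a library and each bar a group mean. S100a4 lies between 3.32 and 4.81 CPM in mNS and between 381 and 489 CPM in GL261, while the points of S100a13 overlap.

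S100a4 showed the largest difference of the family. Its product binds non-muscle myosin IIA and is known for promoting cell motility. The gene lies on chromosome 3 from 90603771 to 90606045 on the plus strand (GRCm38, GENCODE M21). It stood at 3.32, 4.33 and 4.81 CPM in mNS at passages 72, 77 and 85, against 381, 412 and 489 CPM in GL261 at passages 17, 33 and 34. Every mNS library was thus far below every GL261 library, and the mNS values rest on 44, 56 and 68 reads. The group means were 4.16 ± 0.762 CPM in mNS and 427 ± 55.6 CPM in GL261 (SD, n = 3 each), 103-fold lower in mNS, and the log2 difference was -6.38 ± 0.13 (SE; limma adjusted p = 7.03e-09). That fold lay between 93.4 and 112 when any one library was left out. The absolute log2 difference of S100a4 exceeded that of 99.8% of all genes tested.

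The bases just before the start sites of the 4 genes with the largest falls and of S100a16, the gene with the largest rise, are shown because these genes, all but S100b on the same chromosome, differ in size and direction of change. Each is the 250 bases before the start in RefSeq's GRCm38.p6, 5′ to 3′ on the gene's strand. Capitals mark matches, on either strand, to TATAAA (the TATA box), GGGCGG (the GC box), TGANTCA (a site of the AP-1 type) or CAGGTG (an E-box); no match overlapped another.
S100a4, chr3:90603520-90603769, plus strand: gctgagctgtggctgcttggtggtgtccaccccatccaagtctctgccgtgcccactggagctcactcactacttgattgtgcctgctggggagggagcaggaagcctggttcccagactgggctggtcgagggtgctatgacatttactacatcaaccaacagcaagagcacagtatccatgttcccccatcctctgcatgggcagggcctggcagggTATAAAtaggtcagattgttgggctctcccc
S100a11, chr3:93520246-93520495, plus strand: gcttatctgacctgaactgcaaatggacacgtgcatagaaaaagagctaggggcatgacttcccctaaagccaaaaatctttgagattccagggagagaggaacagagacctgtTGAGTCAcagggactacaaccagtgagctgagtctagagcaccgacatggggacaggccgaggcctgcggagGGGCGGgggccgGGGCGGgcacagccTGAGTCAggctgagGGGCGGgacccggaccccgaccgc
S100a6, chr3:90612644-90612893, plus strand: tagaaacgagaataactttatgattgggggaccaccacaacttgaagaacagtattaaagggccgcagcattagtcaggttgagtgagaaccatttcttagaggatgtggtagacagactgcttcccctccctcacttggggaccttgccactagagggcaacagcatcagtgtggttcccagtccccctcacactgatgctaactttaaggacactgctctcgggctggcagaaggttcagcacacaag
S100b, chr10:76253586-76253835, plus strand: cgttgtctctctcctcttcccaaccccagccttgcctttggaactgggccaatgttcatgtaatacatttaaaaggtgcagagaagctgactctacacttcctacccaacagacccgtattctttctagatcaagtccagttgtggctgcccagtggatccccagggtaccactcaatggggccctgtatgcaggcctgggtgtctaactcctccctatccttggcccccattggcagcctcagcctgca
S100a16, chr3:90537004-90537253, plus strand: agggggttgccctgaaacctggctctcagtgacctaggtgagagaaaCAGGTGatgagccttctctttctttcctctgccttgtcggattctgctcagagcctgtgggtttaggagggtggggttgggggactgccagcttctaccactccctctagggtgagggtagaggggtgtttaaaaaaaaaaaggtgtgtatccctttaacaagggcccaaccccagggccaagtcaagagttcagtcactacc
The S100a4 window holds TATAAA, whose first base lies 31 bases before the start. The S100a11 window holds GGGCGG 3 times, 64, 52 and 24 bases before the start, and TGAGTCA 136 and 38 bases before it. The S100a16 window holds CAGGTG 203 bases before the first of the start sites listed for that gene, and the window of the other start site, not printed, holds GGGCGG and TGAATCA. The windows of S100a6 and S100b hold none of these letters, nor do those of S100a1 and S100a13, which are not printed. Of 32851 windows of the same length in the promoter table, 12.4% hold TATAAA, 32.7% GGGCGG, 6.75% TGANTCA and 17.2% CAGGTG. These matches describe the letters only and say nothing of whether a factor binds there.

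S100a11 and S100a6 also fell by over 2 on the log2 scale. S100A11 binds annexin A1 and takes part in membrane repair. Its gene (chromosome 3, 93520488 to 93526287, plus strand) had 2.26, 3.402 and 3.68 CPM in mNS and 35.0, 30.8 and 25.4 CPM in GL261. All mNS libraries were below all GL261 libraries, with 126 reads over the 3 mNS libraries. The means were 3.12 ± 0.750 CPM in mNS and 30.4 ± 4.82 CPM in GL261 (SD, n = 3 each), 9.75-fold lower in mNS (log2 difference -2.94 ± 0.17 SE, limma adjusted p = 1.62e-06). RefSeq also lists a pseudogene, S100a11-ps, on chromosome 12, and the handling of reads that match both was not given in the sources used here.

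S100A6, or calcyclin, is a protein of dividing and stromal cells that binds the ubiquitin-ligase adaptor encoded by Cacybp. Its gene (chromosome 3, 90612882 to 90624181, plus strand) had 51.1, 88.9 and 107 CPM in mNS at passages 72, 77 and 85, against 475, 452 and 439 CPM in GL261 at passages 17, 33 and 34. The mNS libraries differed among themselves by 2.10-fold between the lowest and the highest, the GL261 libraries hardly, and the groups did not overlap. With means of 82.4 ± 28.6 CPM in mNS and 455 ± 18.0 CPM in GL261 (SD, n = 3 each), the level was 5.52-fold lower in mNS (log2 difference -2.52 ± 0.22 SE, limma adjusted p = 1.91e-05).

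S100b, known as an astrocyte marker, was the member outside the chromosome 3 group (chromosome 10, 76253853 to 76261159, plus strand). It had 63.1, 47.1 and 46.1 CPM in mNS, against 205, 239 and 229 CPM in GL261. The groups were well apart, and within mNS the passage 72 library was the highest. The means were 52.1 ± 9.55 CPM in mNS and 225 ± 17.4 CPM in GL261 (SD, n = 3 each), 4.31-fold lower in mNS (log2 difference -2.10 ± 0.12 SE, limma adjusted p = 1.45e-06).

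S100a10, whose product joins annexin A2 at the membrane, fell less (chromosome 3, 93555080 to 93564643, plus strand). It had 139, 198 and 206 CPM in mNS and 341, 349 and 336 CPM in GL261. Even the highest mNS library stayed below the lowest GL261 library. The means were 181 ± 36.6 CPM in mNS and 342 ± 6.56 CPM in GL261 (SD, n = 3 each), 1.89-fold lower in mNS (log2 difference -0.93 ± 0.13 SE, limma adjusted p = 0.000328). No window before its start was in the promoter table.

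S100a16 and S100a1 went the other way. S100A16 is a broadly expressed member of the family (chromosome 3, 90537254 to 90543151, plus strand). Its gene had 50.1, 55.7 and 62.7 CPM in mNS, against 10.1, 17.0 and 15.5 CPM in GL261. The lowest mNS library was above the highest GL261 library, and the GL261 library of passage 17 was the lowest of all. The means were 56.2 ± 6.35 CPM in mNS and 14.2 ± 3.64 CPM in GL261 (SD, n = 3 each), 3.96-fold higher in mNS (log2 difference 1.94 ± 0.18 SE, limma adjusted p = 2.31e-05).

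S100A1 is known from heart and skeletal muscle, where it regulates calcium release, and is also present in brain. Its gene (chromosome 3, 90511034 to 90514392, minus strand) had 23.5, 21.5 and 24.6 CPM in mNS and 16.5, 11.96 and 12.9 CPM in GL261. The groups did not overlap, although the gap between the lowest mNS and the highest GL261 library was small. With means of 23.2 ± 1.56 CPM in mNS and 13.8 ± 2.42 CPM in GL261 (SD, n = 3 each), it was 1.68-fold higher in mNS (log2 difference 0.72 ± 0.13 SE, limma adjusted p = 0.00134).

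S100a13, whose product assists the release of FGF1 from cells, was the member without a call (chromosome 3, 90514435 to 90524581, plus strand). It had 11.2, 11.8 and 15.5 CPM in mNS and 12.2, 11.96 and 13.7 CPM in GL261, and these ranges overlapped. The log2 difference was 0.01 ± 0.14 (SE; limma adjusted p = 0.954), and its sign turned when the libraries were centred on their median gene (-0.013) or quantile normalised (-0.11). S100a13 and S100a1 start back to back on opposite strands: 42 bases separate them in GENCODE M21, and 98 bases overlap in RefSeq. The libraries are stranded, but the strand setting of the counting was not given in the sources used here, so that reads of the shared stretch cannot be assigned with certainty.

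On chromosome 3 lie 7 of the family's genes, and between the outermost of them, S100a1 and S100a10 (90511034 to 93564643), RefSeq lists 70 protein-coding genes. Of these 70 genes the table lists 7, all of them S100 genes. No other protein-coding gene of that stretch could therefore be set beside them. Some neighbouring S100 genes shared a direction and others did not. S100a4 and S100a6, next to each other among the measured genes, both fell, as did S100a11 and S100a10. S100a16 rose while S100a4 and S100a6, the next of the measured genes along the chromosome, fell, and S100a1 rose while S100a13, which starts next to it, was not called.

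The order of the S100 genes by level was not the same in the 2 groups. Levels were compared per kilobase of exon, using the exon bases of each gene in GENCODE M21, since CPM alone favours long transcripts. In mNS S100a10 stood first at 149 ± 30.2 CPM per kilobase, followed by S100a6 at 60.3 ± 20.9. S100b at 35.1 ± 6.44, S100a16 at 34.7 ± 3.93 and S100a1 at 33.4 ± 2.25 CPM per kilobase came next in mNS and did not differ beyond their spread. They were followed in mNS by S100a13 at 18.0 ± 3.27, S100a4 at 7.12 ± 1.30 and S100a11 at 6.10 ± 1.47 CPM per kilobase, of which the last pair lay within their spread. In GL261 S100a4 stood first at 732 ± 95.2 CPM per kilobase, followed by S100a6 at 333 ± 13.2, S100a10 at 282 ± 5.41, S100b at 151 ± 11.7 and S100a11 at 59.4 ± 9.43. The genes with the lowest levels in GL261 were S100a1 at 19.9 ± 3.49, S100a13 at 17.7 ± 1.33 and S100a16 at 8.77 ± 2.25 CPM per kilobase, and S100a1 and S100a13 did not differ beyond their spread (all SD, n = 3).

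Summed over the 8 genes, the level per kilobase was 344 ± 53.9 in mNS and 1604 ± 77.0 CPM per kilobase in GL261 (SD, n = 3 each), 4.66-fold lower in mNS. S100a10 made up 43.2 ± 2.81% of that sum in mNS and 17.6 ± 1.044% in GL261. For S100a4 the share was 2.06 ± 0.0597% in mNS and 45.5 ± 3.70% in GL261, so the gene that led in GL261 was next to last in mNS. S100a6 held 17.1 ± 3.61% in mNS and 20.8 ± 1.79% in GL261, and S100b held 10.6 ± 3.77% in mNS and 9.44 ± 0.614% in GL261. For both genes the ranges of the shares overlapped between the groups with this length. S100a16 held 10.1 ± 0.618% in mNS and 0.545 ± 0.129% in GL261. These shares depend on the transcript length used: with the longest transcript of each gene, S100a10 held 50.6% in mNS and S100a4 38.9% in GL261, and S100a16 stood above S100b in mNS. The S100a6 shares then no longer overlapped, at 15.7 to 22.8% in mNS and 24.5 to 28.5% in GL261.

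**Figure D2:**
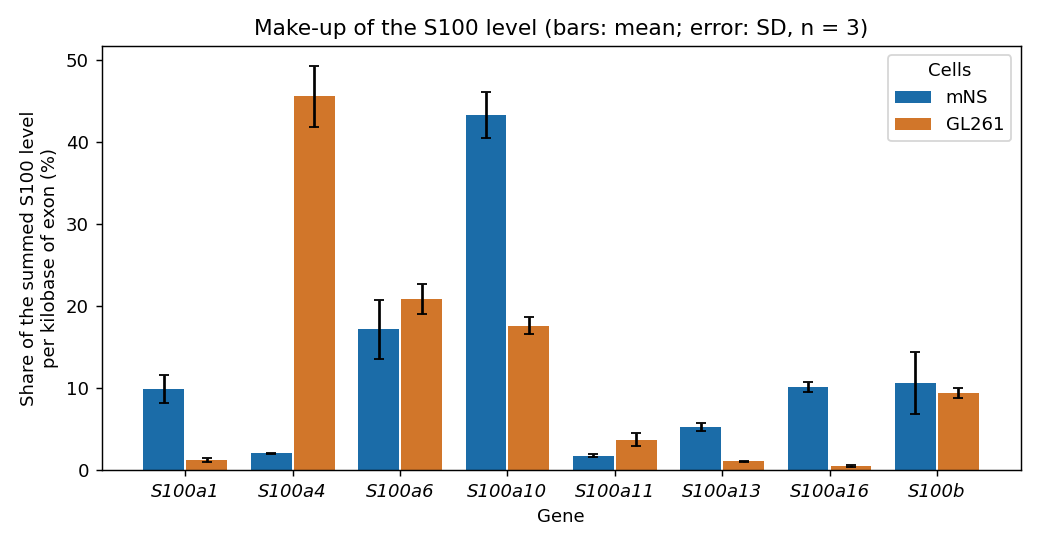
Share of the summed S100 level per kilobase of exon held by each gene, in percent (bars, mean of 3 libraries; error bars, SD), for mNS and GL261. S100a10 has the tallest bar in mNS (43.2%) and S100a4 in GL261 (45.5%).

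Within mNS, 6 of the 8 genes (S100a4, S100a6, S100a10, S100a11, S100a13 and S100a16) stood higher at each later passage, in the order 72, 77 and 85, as did 27.3% of all genes tested. S100b ran the opposite way, as did 27.6% of all genes tested, and S100a1 followed neither order. Each passage is a single library, so this carries no test. For S100a6 the rise was clear of counting error, with 51.1 CPM (exact 95% Poisson limits 47.3 to 55.1) at passage 72 and 107 CPM (102 to 113) at passage 85. S100a10 stood at 139 CPM (133 to 146) at passage 72 and 206 CPM (199 to 214) at passage 85, also with limits apart. For S100a4 and S100a11 the limits at passages 72 and 85 overlapped, 2.41 to 4.46 and 3.74 to 6.10 CPM for S100a4, and the 2 passages were not compared further. Of the genes that rose in order, only S100a6 had limits apart at every step between neighbouring passages. For S100b the limits at passages 77 and 85 overlapped, 43.4 to 51.0 and 42.6 to 49.8 CPM. These limits cover counting error only. The log2 change of S100a6 from passage 72 to 85 was 1.06, larger in size than that of 98.7% of all genes tested.

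Within GL261, S100a4 was higher at each later passage (381, 412 and 489 CPM at passages 17, 33 and 34), an order shared by 22.1% of all genes tested. These orders take the passages from the titles, while the passage field of GL261 replicate 3 says 33. S100a6 and S100a11 were lower at each later passage, as were 20.7% of all genes tested. For both genes the counting limits at passages 17 and 33 overlapped, while those at passages 17 and 34 lay apart. S100a4 thus had the same order in both kinds of cell, whereas S100a6 and S100a11 had opposite orders in mNS and GL261; for S100a4 and S100a11 the mNS order rests on low levels whose counting limits overlapped.

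**Figure D3:**
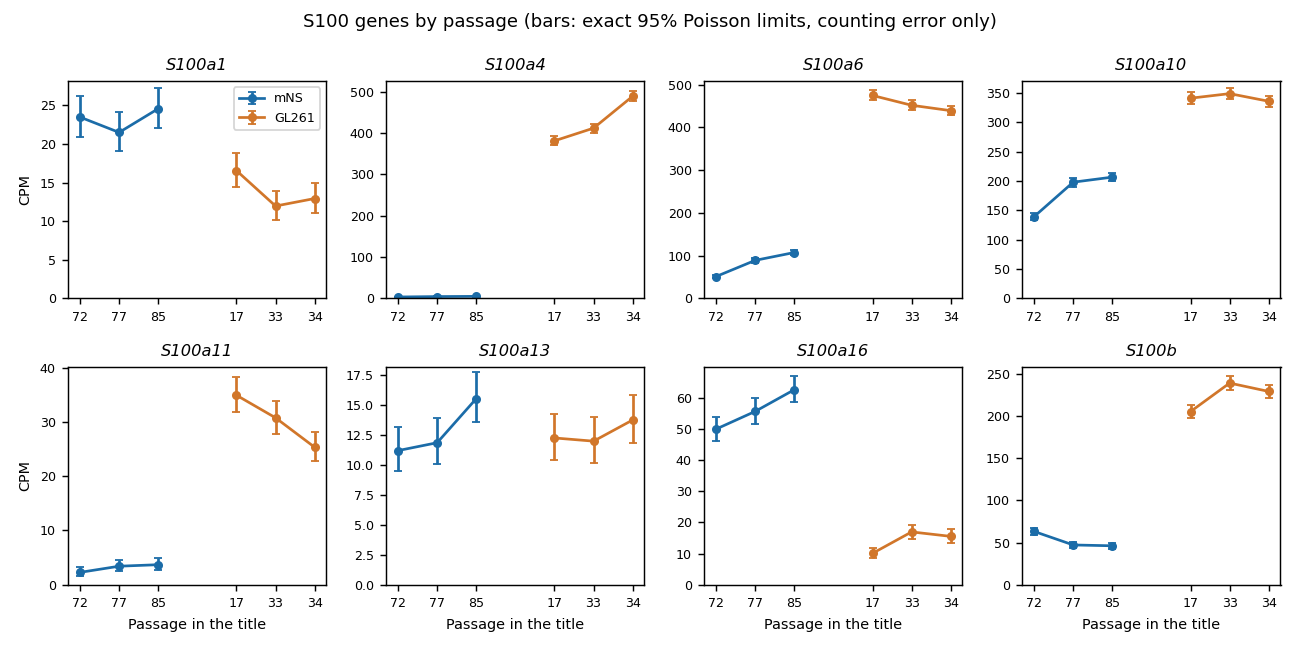
CPM of each S100 gene by the passage in the library's title, mNS at left and GL261 at right in each panel, with exact 95% Poisson limits that cover counting error only. S100a6 goes from 51.1 to 107 CPM across the mNS passages, and S100b is highest at passage 72 among the mNS libraries.

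The genes of proteins that S100 proteins bind were also examined. Of 15 such genes tested, 4 rose and 9 fell in mNS, with a median log2 difference of -0.26, against -0.0027 over all genes tested. Of all genes tested, 32.2% were called higher and 32.1% lower in mNS. The partners of S100A10 fell with it. Ahnak, a very large scaffold protein held at the membrane by the S100A10 and annexin A2 complex, had 309, 326 and 347 CPM in mNS and 2787, 2525 and 2574 CPM in GL261. Anxa2, which encodes annexin A2 itself, had 325, 398 and 414 CPM in mNS and 2208, 2213 and 2161 CPM in GL261. Both genes were far lower in every mNS library, with log2 differences of -3.00 ± 0.07 for Ahnak and -2.54 ± 0.09 for Anxa2 (SE; limma adjusted p = 9.48e-09 and 8.31e-08), each larger in size than the -0.93 of S100a10.

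Annexin A1, the partner of S100A11, is encoded by Anxa1, which had 166, 258 and 351 CPM in mNS at passages 72, 77 and 85, against 501, 536 and 494 CPM in GL261. The groups did not overlap (log2 difference -1.04 ± 0.22 SE, limma adjusted p = 0.00320). The mNS values of Anxa1 stood higher at each later passage, as did those of S100a11 and of 27.3% of all genes tested. For S100a11 the counting limits at passages 72 and 85 overlapped. Among partners of S100A6, Anxa11 fell to 1.58 ± 0.171 CPM in mNS, against 5.94 ± 1.06 CPM in GL261 (log2 difference -1.42). Cacybp (-0.55) and Sugt1 (-0.46), which encodes a co-chaperone, also fell. Anxa6, whose product binds S100A6 and S100B, rose instead, with 760 ± 41.3 CPM in mNS and 504 ± 12.1 CPM in GL261 (SD, n = 3 each; log2 difference 0.59).

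Partners of S100B went both ways. Stk38l and Stk38, genes of the NDR kinases that S100B activates, rose (log2 differences 0.97 and 0.44), as did Iqgap1, a cytoskeletal scaffold gene (0.25; the call was lost without GL261 replicate 2, limma adjusted p = 0.0567). Trp53, the gene of p53, fell (-0.36), and Mdm2, the gene of the ubiquitin ligase of p53, stood at 119 ± 24.5 CPM in mNS and 129 ± 8.23 CPM in GL261 without a call (log2 difference -0.13, limma adjusted p = 0.416), but was called lower without mNS replicate 1 (-0.29, limma adjusted p = 0.0105). The genes set here beside S100A4 as its partners, Ppfibp1 and Myh9, moved little. Ppfibp1, the gene of liprin beta 1, fell slightly (log2 difference -0.26). Myh9, the gene of the non-muscle myosin IIA heavy chain, was called lower with a log2 difference of -0.17 (limma adjusted p = 0.0415), a call that was lost when any library other than GL261 replicate 2 was left out (limma adjusted p between 0.0692 and 0.140), with a sign that turned under quantile normalisation (0.0085). S100pbp, named for binding to the human protein S100P, was not called (log2 difference -0.03, limma adjusted p = 0.850), and its sign turned when columns were rescaled to a common sum (0.061). Myh10 and Fgf1 were not listed in the table.

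**Figure D4:**
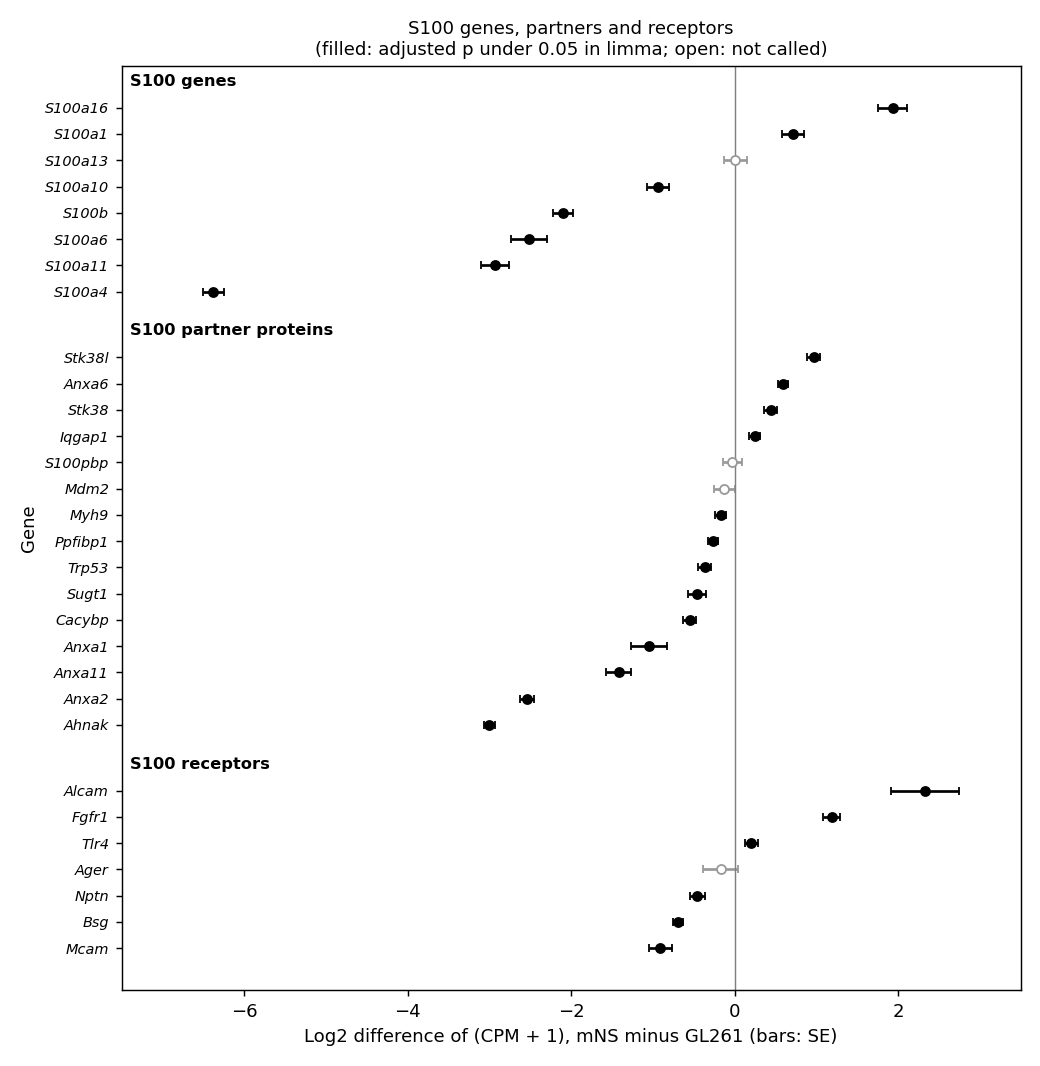
Log2 difference of CPM + 1, mNS minus GL261, with its SE, for the S100 genes and for the genes of their partners and receptors; filled points were called by limma at an adjusted p under 0.05. S100a4 lies at -6.38, while Ahnak at -3.00 is the lowest of the partners and Alcam at 2.33 the highest of the receptors.

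Of 7 genes of cell surface receptors tested that have been described for released S100 proteins, several of them for S100A8 and S100A9, 3 rose and 3 fell in mNS. The shares over all genes tested were 32.2% higher and 32.1% lower. Ager, the gene of RAGE, was near the floor of the table, with 43 reads over the mNS and 56 over the GL261 libraries. It stood at 1.07 ± 0.190 CPM in mNS and 1.37 ± 0.603 CPM in GL261 without a call (limma adjusted p = 0.515). Alcam, an adhesion molecule gene, had 82.4, 66.0 and 69.7 CPM in mNS and 31.6, 7.998 and 9.61 CPM in GL261. The groups did not overlap, and the fold was 4.43 higher in mNS with all libraries and 8.26 without GL261 replicate 1 (log2 difference 2.33 ± 0.41 SE, limma adjusted p = 0.00116). Fgfr1, a fibroblast growth factor receptor gene, rose, with 58.4 ± 3.03 CPM in mNS and 25.2 ± 2.94 CPM in GL261 (log2 difference 1.19). Mcam (log2 difference -0.91), Bsg (-0.70) and Nptn (-0.46), genes of immunoglobulin-type surface proteins, fell. Tlr4, an innate immune receptor gene, was called higher with a log2 difference of 0.21 (limma adjusted p = 0.0478), and lost that call whichever library was left out.

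The annexins and the other EF-hand genes give the wider setting, beside 32.2% of all genes tested called higher and 32.1% called lower in mNS. Of 9 annexin genes tested 2 rose (Anxa6 and Anxa4) and 6 fell, with a median log2 difference of -1.04. Anxa5, whose product binds phosphatidylserine on dying cells, had the largest fall among them, with 59.9 ± 2.54 CPM in mNS and 553 ± 11.9 CPM in GL261 (log2 difference -3.19), and Anxa8 was next in rank among those not yet described (-1.21, from 8 reads over the mNS and 74 over the GL261 libraries). Of 27 other EF-hand genes tested, not all of them for small proteins, 9 rose and 10 fell, with a median log2 difference of 0.02. The largest changes among these 27 were the falls of Tesc (log2 difference -2.64), Ncald (-2.11), a neuronal calcium sensor gene, Rcn3 (-2.08), an endoplasmic reticulum protein gene, and Efhd2 (-1.51). Calm2, which encodes the calcium sensor calmodulin, rose (0.45). S100g and S100z, S100 genes outside the naming used here, were not listed.

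Cell type markers moved beside the S100 genes, while 32.2% of all genes tested were called higher and 32.1% lower in mNS. For S100a4, 10 of 13 fibroblast and mesenchymal genes tested fell and 1 rose. Their summed level lay between 3953 and 4103 CPM in mNS and between 8851 and 10509 CPM in GL261. Most of that sum came from 1 gene, Vim, with 3660 ± 117 CPM in mNS and 7257 ± 617 CPM in GL261 (SD, n = 3 each). Fn1, the fibronectin gene (log2 difference -8.52), Acta2 (-4.34), Col1a1 (-4.19) and Tagln (-3.90) had the largest falls, and Thy1, Lum and Dcn were not listed. For S100b, astrocyte genes went both ways, 4 of 10 tested rising and 4 falling. Their summed level was 1687 to 1797 CPM in mNS and 1446 to 1943 CPM in GL261. The largest part of it was Sparcl1 in mNS (1111 ± 103 CPM) and Fgfr3 in GL261 (872 ± 160 CPM). Gfap, the astrocyte filament gene, had 4 reads over the mNS and 141 over the GL261 libraries, and Aldh1l1 had 0 reads in mNS and 334 in GL261, while Aldoc rose (log2 difference 2.75) and Fgfr3 fell (-8.41). Aqp4 and Slc1a2 were not listed. Of 13 oligodendrocyte lineage genes tested 10 rose and 3 fell, with a summed level of 1452 to 1655 CPM in mNS and 1585 to 1713 CPM in GL261. The largest part of this sum was Olig2 in mNS (437 ± 22.8 CPM) and Mbp in GL261 (763 ± 33.3 CPM). Olig2 (log2 difference 5.57), Olig1 (4.56) and Mog (3.98) rose, and Mbp fell (-4.50), the direction of S100b. The part of any of these cell types in the S100 differences was not tested.

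Markers of other cell types were examined as well, beside the same shares of all genes tested (32.2% higher and 32.1% lower in mNS). Of 15 myeloid and microglial genes 5 were listed, with a summed level of 17.7 to 24.5 CPM in mNS and 11.7 to 14.8 CPM in GL261, and Ptprc, Itgam, Aif1 and Cx3cr1, which define these cells, were not. Of the 4 tested, Cd14 (log2 difference 1.46), Cd68 (1.19) and Tmem119 (0.69, from 66 reads in mNS and 26 in GL261) rose and Lyz2 fell (-1.45). The other listed gene, Csf1r, missed the filter, with 2 reads over the mNS and 68 over the GL261 libraries. Of 8 endothelial genes Flt1 alone was listed, at 29.4 ± 2.92 CPM in mNS and 31.1 ± 9.87 CPM in GL261, without a call. Of 10 neuronal genes 5 were listed, and Dcx, Rbfox3, Snap25, Syp and Stmn2 were not. The listed neuronal genes split, with 3 of 5 rising and 2 falling. Their changes ranged from Gap43 (log2 difference 5.73) to Tubb3 (-4.68), with Ncam1 (-3.23) and Syt1 (2.05) between. Of 10 epithelial and keratinocyte genes 3 were listed and all rose, the keratin genes Krt8 (4.70) and Krt18 (3.22, with 340 reads in mNS and 0 in GL261) and the adhesion gene Epcam (2.50).

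The genes with the most similar profiles were sought among the 9445 other genes averaging 10 CPM or more, by the root mean square difference of log2(CPM + 1) over the 6 libraries, each gene centred on its own mean. Nearest to S100a4 were Slc35f1 (0.17), with 0.960 ± 0.277 CPM in mNS and 173 ± 9.28 CPM in GL261, Ntm (0.22), the gene of the adhesion molecule neurotrimin, and Synm (0.26), the gene of the intermediate filament protein synemin. Nearest to S100b were Gpr126 (0.0792), an adhesion-type receptor gene, Prkca (0.0797), a protein kinase C gene, and Taf9b (0.0846). S100a6 was nearest to Arap3 (0.14), the laminin gene Lamb1 (0.16) and the receptor kinase gene Axl (0.17). S100a11 was nearest to Mid1 (0.10), Ahnak (0.16) and Olfml2a (0.17), so that the scaffold partner of S100A10 was closer in profile to S100a11 than to S100a10 itself among the first 3. S100a10 was nearest to the histone genes Hist1h2bl (0.0621) and H2afx (0.0635) and to Pi4k2b (0.0686). S100a16 was nearest to Podxl (0.12), Reep1 (0.12) and Vcan (0.13), and S100a1 to Klc4 (0.0528), Atf7 (0.0555) and Eif2ak4 (0.0591). With 2 groups that lie far apart, this measure mostly reads the size of the group difference.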

How the data were processed

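RNA of 6 cultured mouse glioma samples was read from 1 end after ribosomal RNA depletion and stranded library preparation, per the labels' protocols and the series text. The submitters' processing notes name TopHat2 (2), HTSeq 0.5.3p9, edgeR 3.4.2 and mm10 without roles. The deposited table holds 1 signal per gene and library, CPM with TMM factors by the authors, per the file's name and the series text; the limit for leaving out low genes was not given in the sources used here. Dividing by the worth of 1 read gave whole reads for 100% of values (tolerance 0.001 reads). 

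The 12006 genes whose mean reached 1 CPM were tested, two-sided, with limma 3.58.1 in R 4.3.3 (lmFit, then eBayes with a trend) on log2(CPM + 1), which understates changes of low genes, with Benjamini-Hochberg adjustment over all of them. N-fold values are ratios of group means of CPM. Count tests on the recovered reads were alternatives: the quasi-likelihood test of edgeR 4.0.16 called 7651 genes, its exact test 7495 and DESeq2 1.42.0 7353. The script was tested on simulated data. Positions come from GENCODE M21 (GRCm38), promoters from RefSeq GRCm38.p6, in which 7 of the 8 genes were found. Tables, limits and plots were made with matplotlib 3.10.9, scipy 1.17.1, numpy 2.4.6 and pandas 2.3.3 under Python 3.11.15.

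The S100 genes, the gene lists and the motifs were chosen with earlier results of these data known. Named are every S100 gene, listed partner and receptor, up to 4 called genes with the largest differences of each other list, and the 3 nearest profiles of each called S100 gene; Anxa4, Calm2 and Flt1 were picked after their values were seen. Alternatives changed 1 choice at a time or left out each library.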

Additional observations from a re-analysis of the deposited data

How the results depend on the processing

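The 7 called S100 genes kept their direction and call in all 19 alternatives, and the counts of 5 lower and 2 higher did not change. The log2 difference ranged from -6.68 to -6.26 for S100a4, from -3.28 to -2.78 for S100a11, from -2.74 to -2.21 for S100a6, from -2.27 to -2.01 for S100b, from -1.04 to -0.75 for S100a10, from 1.72 to 2.07 for S100a16 and from 0.63 to 0.85 for S100a1. S100a13 was never called, and its sign turned with median centring (-0.013), quantile normalisation (-0.11), array weights (-0.068) and single libraries left out (-0.12 to 0.10). Over all genes the calls ranged from 6081 at an adjusted p under 0.01 to 9488 with array weights. Rescaling to a common sum moved the median gene to 0.08, with 4460 genes higher and 3197 lower.

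Signs without a stable call also turned for Myh9 under quantile normalisation (0.0085), for S100pbp with rescaling (0.061), array weights (0.088) and single libraries left out (-0.12 to 0.10), and for Ager with single libraries left out (-0.37 to 0.0064). With a filter of 5 CPM, 2 astrocyte and 0 myeloid genes were called lower, since fewer of them were tested; with array weights 2 mesenchymal genes were called higher (the cause was not tested). With the longest transcript as length, the shares of the S100 level in mNS and in GL261 were 6.72% and 0.931% for S100a1, 1.60% and 38.9% for S100a4, 50.6% and 22.7% for S100a10, 1.16% and 2.72% for S100a11 and 3.46% and 0.803% for S100a13. For S100a6 they were 19.7% in mNS and 26.5% in GL261, with ranges that did not overlap, unlike those per exon base. The share of S100b in GL261 was 6.88%. No paired analysis was possible because the labels give passages, which differ between the groups, and no shared replicate numbers. Depth limits S100a4 and S100a11 in mNS, with 168 and 126 reads in all.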
